A study of Mus musculus with 6 samples.

Results

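The genes described here bind, sense or move copper and zinc in mouse cells, or form a channel that platinum drugs can pass, and several of the metal proteins are also thought to bind or carry platinum. They are Mt1, Mt2, Mtf1, Slc30a1, Slc31a1, Slc31a2, Atp7a, Atp7b, Lrrc8a and Lrrc8d. The list was set by gene name, with earlier results of these data known, and it makes up 10 of the 54532 genes in the deposited table. All 10 passed the filter on low values (3 or more of the 6 libraries with an FPKM of 1 or higher), although Atp7b passed it through its 3 PBS libraries alone.

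Bone marrow-derived macrophages (BMDMs), as the labels name them, were co-cultured in vitro with ID8 cells, a mouse ovarian cancer line. The study's methods speak of marrow monocytes taken from C57BL/6 mice aged 6 to 8 weeks and describe no step that turns them into macrophages. The labels give the treatment as 40 µM cisplatin in 3 libraries and phosphate-buffered saline (PBS) in the other 3. They do not say which cells received it. That the ID8 cells were treated before the co-culture comes from the study's text alone, and whether drug was carried over to the BMDMs is not given in the sources used here. Either way every library came from a co-culture and no BMDMs without ID8 cells entered this comparison. The question was what macrophages do in response to cisplatin-exposed tumour cells. How the BMDMs were separated from the ID8 cells, how long they were together and whether the libraries came from separate cultures or mice are not given in the sources used here. The study's methods mention biological replicates in general terms only, so p-values measure the spread between these libraries, part of which may be technical.

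Metallothioneins are small cysteine-rich proteins that bind zinc and copper and also platinum, and their genes are switched on by the zinc-sensing transcription factor MTF1 through metal response elements in their promoters. MTF1 also drives Slc30a1, the zinc exporter of the cell surface. Copper enters through SLC31A1 (CTR1), is handled by the related SLC31A2 (CTR2) on intracellular vesicles, and leaves the cytosol through the ATPases ATP7A and ATP7B. Macrophages are known to use ATP7A to pump copper into phagosomes. Cisplatin can share the copper route, and it can also pass volume-regulated anion channels built from LRRC8A with partner subunits such as LRRC8D.

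Because Mt1, Mt2 and Slc30a1 are the textbook targets of MTF1, and all 3 were lower with cisplatin, their promoters are shown first. Each line below gives 250 bases before the RefSeq start and the first 30 after it (GRCm38.p6, plus strand, chr8:94178839-94179118 for Mt1, chr8:94172368-94172647 for Mt2 and chr1:191906531-191906810 for Slc30a1). Capitals mark the core of the metal response element, TGCACNC or TGCGCNC with N for any base, on either strand.
Mt1: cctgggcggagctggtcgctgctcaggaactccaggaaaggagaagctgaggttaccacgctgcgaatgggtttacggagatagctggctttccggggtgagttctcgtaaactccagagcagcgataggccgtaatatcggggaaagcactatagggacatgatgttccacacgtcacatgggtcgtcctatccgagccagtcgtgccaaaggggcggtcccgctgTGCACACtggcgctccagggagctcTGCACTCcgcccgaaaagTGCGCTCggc
Mt2: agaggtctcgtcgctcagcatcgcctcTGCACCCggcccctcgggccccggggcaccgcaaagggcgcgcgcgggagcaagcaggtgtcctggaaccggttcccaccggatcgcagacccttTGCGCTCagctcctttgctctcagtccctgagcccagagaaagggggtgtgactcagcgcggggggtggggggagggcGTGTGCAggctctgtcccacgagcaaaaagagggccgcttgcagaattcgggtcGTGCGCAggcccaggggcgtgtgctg
Slc30a1: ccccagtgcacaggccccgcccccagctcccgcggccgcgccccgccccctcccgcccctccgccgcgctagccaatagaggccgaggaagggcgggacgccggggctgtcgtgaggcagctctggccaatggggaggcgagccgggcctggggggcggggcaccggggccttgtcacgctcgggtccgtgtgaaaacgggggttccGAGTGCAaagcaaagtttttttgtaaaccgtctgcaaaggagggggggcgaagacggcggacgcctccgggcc

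The search covered the full window of 250 bases before and 50 bases after the start, and all 10 genes were found in the promoter table. The Mt1 window held 3 cores, all on the gene's strand, and 1.97% of the 32851 promoters of this length held as many. In the Mt2 window there were 4, of which 2 lay on the other strand, and 0.517% of promoters reached that number. Slc30a1 and Atp7a each had 2 (7.11% of promoters), of which the second of Slc30a1 begins at base 31 after the start and so lies past the stretch shown. Slc31a2 and Atp7b had 1 each (25.7%), and no core was found in the windows of Mtf1, Slc31a1 and Lrrc8a. For Lrrc8d the window of one annotated start had none and that of the other had 3. No matches overlapped. A match is only a run of letters and says nothing of binding in these cells.

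**Figure D1:**
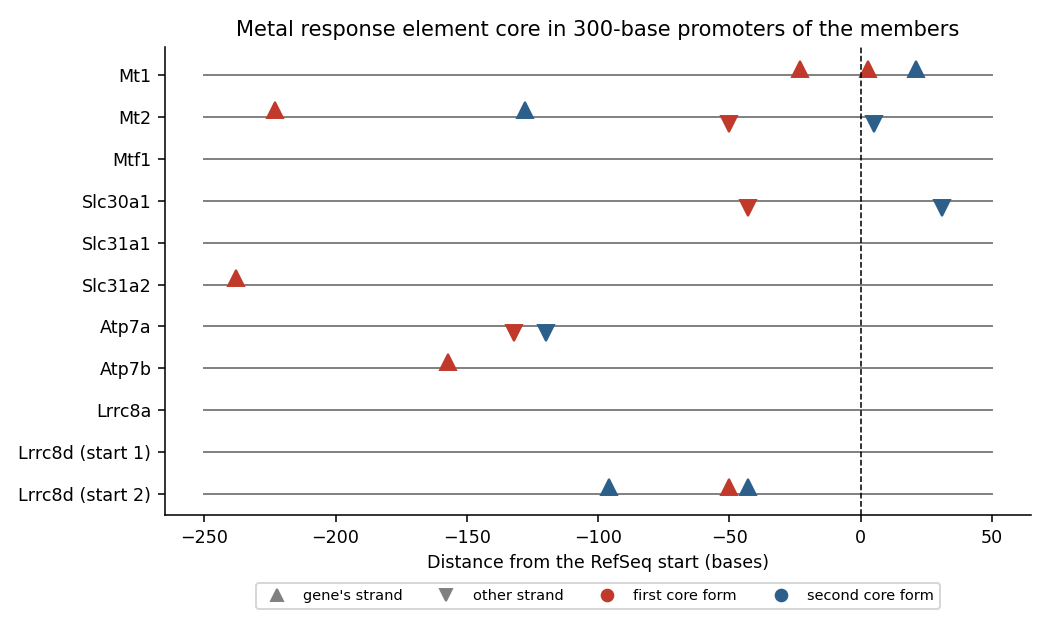
Positions of the metal response element core in the 300-base promoter window of each gene, with the distance from the RefSeq start in bases on the horizontal axis. Upward triangles lie on the gene's strand, downward triangles on the other, and the colour gives the form of the core (TGCACNC in red, TGCGCNC in blue). Mt2 holds 4 cores, Mt1 3, and Slc30a1 and Atp7a 2 each.

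Values are FPKM, that is, fragments per kilobase of gene length scaled to library size. Fold changes compare cisplatin with PBS as differences in log2(FPKM + 1), where the added 1 shrinks the change of weakly expressed genes. A gene was called by limma at a Benjamini-Hochberg adjusted p under 0.05 over all 13441 tested genes if its log2 fold change was also 1 or more in either direction. Of the 10 genes, 4 were called lower (Mt1, Mt2, Slc30a1 and Atp7b), beside 11.3% of all tested genes. None was called higher, beside 4.67% of all tested genes. At an unadjusted p under 0.05 without the fold change threshold 3 were higher, and limma voom on reads recovered from the FPKM values also called 0 higher. By the adjusted p alone, 3 of the 10 were higher (Slc31a2, Mtf1 and Lrrc8d), beside 32.9% of all tested genes, and 5 were lower, beside 35.1%. The groups did not overlap in 8 of the 10 genes, beside 72.4% of all tested genes. Atp7b, which passed the filter only where it was high, had to differ and adds nothing to these counts. Without it 3 of 9 genes were called lower, and the median log2 fold change of the 9 was -0.026, against -0.0011 over all tested genes (-0.51 with Atp7b).

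The directions of Mt1, Mt2, Slc30a1 and Atp7a were the same under every scaling tried, whereas those of Mtf1, Slc31a1, Slc31a2, Lrrc8a and Lrrc8d were not. That of Atp7b was set by the filter. Across all tested genes 628 were called higher and 1514 lower, but 85 and 5181 after scaling by 4 Y-linked genes (Uty, Kdm5d, Eif2s3y and Ddx3y). The median over all tested genes then stood at -0.83, and under quantile normalisation at 0.10. Relative to the median of all genes, the Y-scaled log2 fold changes were -1.19 for Mt1, -1.58 for Mt2, -1.39 for Slc30a1, -1.04 for Atp7a, -0.54 for Atp7b, 0.71 for Slc31a2, 0.26 for Mtf1, 0.11 for Lrrc8d, 0.19 for Lrrc8a and -0.16 for Slc31a1. Slc31a2, Mtf1 and Lrrc8d, whose signs turned under this scaling, lay above the shifted median. The scaling multiplies all genes of a library by the same factor, so subtracting the median largely undoes it. These relative values are therefore not a separate check on the scaling.

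**Figure D2:**
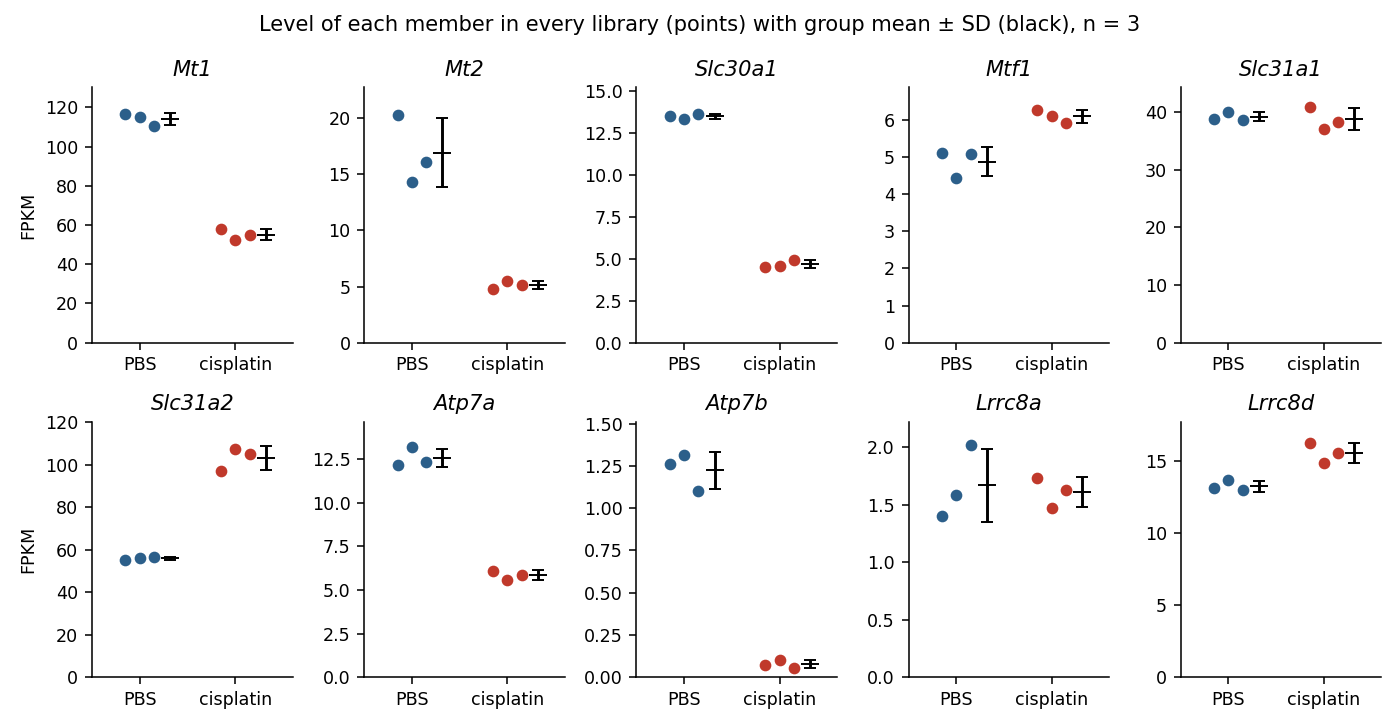
FPKM of the 10 genes in each of the 3 PBS libraries (blue) and 3 cisplatin libraries (red), with the group mean and SD in black and a vertical axis that starts at 0 in each panel. Mt1, Mt2, Slc30a1, Atp7a and Atp7b lie lower in all 3 cisplatin libraries, Slc31a2 lies higher, and the groups of Slc31a1 and Lrrc8a overlap.

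Mt1, the most abundant of the 10 genes in the PBS libraries, was read at 117, 115 and 110.3 FPKM there and at 57.9, 52.1 and 55.2 FPKM in the cisplatin libraries. The groups lay far apart, and the mean went from 114 ± 3.29 to 55.1 ± 2.88 FPKM (SD, n = 3 each), a level 2.07-fold higher with PBS. The log2 fold change was -1.04 (SE 0.047, 95% interval -1.15 to -0.93, limma adjusted p = 2.28e-06), a value that 10.7% of tested genes reached or fell below. This call rested on the fold threshold, since the log2 fold change was -0.95 after scaling by total reads, -0.96 with voom and -0.9999 without cisplatin replicate 2, each short of it. Mt1 (ENSMUSG00000031765) lies on chromosome 8 from 94179082 to 94180327 (GRCm38, plus strand). The table gives it a length of 1246 bases, which is the whole span with its introns, whereas its principal transcript has 549 bases in 3 exons. Per base of that transcript the level would be 259 FPKM with PBS and 125 FPKM with cisplatin.

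Mt2, the neighbouring gene, fell further. Its values were 20.3, 14.3 and 16.1 FPKM in the PBS libraries and 4.80, 5.49 and 5.15 FPKM in the cisplatin libraries. No cisplatin library came near the lowest PBS library, and PBS replicate 1 stood above the other PBS libraries. The mean went from 16.9 ± 3.06 to 5.15 ± 0.34 FPKM (SD, n = 3 each), 3.28-fold higher with PBS. The log2 fold change of -1.53 (SE 0.12, 95% interval -1.82 to -1.24, limma adjusted p = 3.34e-05) was reached or passed downward by 5.57% of tested genes. Behind it stood 211, 131 and 147 recovered reads with PBS and 48, 53 and 50 with cisplatin.

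Mt2 (ENSMUSG00000031762, chromosome 8, 94172664 to 94173568, plus strand) ends 5513 bases before Mt1 begins, with 0 genes of the table between them. In the annotation 432 of its exon bases, 73.5% of its length, also belong to Gm45774 on the opposite strand. Whether counting used strand is not given in the sources used here, and reads from either gene could then not be told apart. Gm45774 itself was given 3, 2 and 0 reads in the PBS libraries and 1, 1 and 2 in the cisplatin libraries. If all recovered Mt2 reads came from the 156 unshared exon bases, its level would be 63.7 FPKM with PBS and 19.4 FPKM with cisplatin. Whether they did is not known, as reads were not counted by stretch. Mt1 and Mt2 are also close paralogs, so reads that fit both are a further uncertainty in each.

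Within a library the Mt1 level was 5.75, 8.05 and 6.84 times that of Mt2 with PBS and 12.1, 9.50 and 10.7 times with cisplatin. The ratio of FPKM values, which multiplying a library by any factor cannot change, was thus higher in all 3 cisplatin libraries. Its means were 6.88 ± 1.15 with PBS and 10.8 ± 1.28 with cisplatin (SD, n = 3 each). On log2(FPKM + 1), where the added 1 makes the value depend somewhat on scaling, it differed by 0.49 (SE 0.16, exact permutation test, two-sided, p = 0.1, the smallest p that 3 against 3 allows). Of the remaining family members, the brain and epithelial forms, Mt3 was listed at 0 in all 3 cisplatin libraries and at 0.053, 0 and 0.121 FPKM with PBS, and Mt4 was listed at 0 in all 6 libraries. Neither was tested.

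The transcription factor gene Mtf1 did not fall with its targets. Its level was 5.10, 4.43 and 5.08 FPKM with PBS and 6.26, 6.11 and 5.90 FPKM with cisplatin, so that the groups did not overlap. The log2 fold change of 0.27 (SE 0.065, 95% interval 0.12 to 0.43, limma adjusted p = 0.00792) was well under the fold threshold, lay within the range where 30.4% of tested genes were as high or higher, and turned to -0.57 after scaling by the Y-linked genes, which is 0.26 relative to the median of all genes. Mtf1 (ENSMUSG00000028890, chromosome 4, 124802104 to 124849800) shares 721 exon bases with 1110065P20Rik on the opposite strand.

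Slc30a1 (ENSMUSG00000037434, chromosome 1, 191906767 to 191913247), which encodes the zinc exporter ZnT1, varied little within a group. It stood at 13.5, 13.4 and 13.6 FPKM with PBS and at 4.51, 4.599 and 4.94 FPKM with cisplatin. The groups lay far apart, and the means of 13.5 ± 0.14 and 4.68 ± 0.23 FPKM (SD, n = 3 each) differed 2.88-fold. Its log2 fold change was -1.35 (SE 0.048, 95% interval -1.47 to -1.24, limma adjusted p = 7.93e-07). Mt2 and Slc30a1 were the genes of the list that were called under every setting tried, including limma's test against a log2 fold change of 1.

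The RNA was bulk RNA from a co-culture, so fewer cells of one type and less RNA per cell cannot be told apart. Most markers of the co-cultured line were also lower with cisplatin. Of 15 ID8 and mesothelial markers 12 were tested, 9 were called lower and 11 were lower by the adjusted p. Their median log2 fold change was -2.09, and their summed level was 1340.5 to 1450 FPKM in the PBS libraries and 253 to 276 FPKM in the cisplatin libraries. None of the 15 was at 0 in all 6 libraries, but the untested Krt7, Igfbp5 and Epcam had PBS means of 0.068, 0.0036 and 0.22 FPKM. The keratin gene Krt19 fell the most of the tested markers (log2 fold change -3.50). It was read at 554 to 605 FPKM with PBS and 46.8 to 54.0 FPKM with cisplatin. Msln fell by less (-0.70), and Cdh1 went the other way (0.60, limma adjusted p = 0.00238). All 10 macrophage markers were tested and were higher by the adjusted p, 3 of them called, one of which, Mertk, passed the filter through the cisplatin libraries alone and so had to differ. Their summed level was 1716 to 1727 FPKM with PBS and 4326 to 4489 FPKM with cisplatin. These macrophage markers had a median log2 fold change of 0.90, which was -0.090 after scaling by the Y-linked genes. The part of either marker set in the changes of the metal genes was not tested.

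Further cell types were also read. The 4 Y-linked genes, which a line from an ovary does not carry, summed to 19.5 to 22.7 FPKM with PBS and 41.6 to 42.8 FPKM with cisplatin. Neutrophil and progenitor markers summed to 4595 to 4750.1 FPKM and 8237 to 8504 FPKM, with 5 of 8 called higher, and lymphocyte markers to 113 to 121 FPKM and 267 to 274 FPKM, with 3 of the 5 tested called higher. The median log2 fold changes of these lists were 1.70 and 1.04, and 0.71 and 0.060 after scaling by the Y-linked genes. The neutrophil sum consists mostly of S100a8 and S100a9, with log2 fold changes of 0.86 and 0.75. Erythroid markers summed to 62.4 to 63.7 FPKM and 66.8 to 71.8 FPKM, with 0 of the 3 tested called in limma and 0 higher at an unadjusted p under 0.05. Libraries of one group correlated at r from 0.984 to 0.989 across the tested genes, and libraries of different groups at 0.872 to 0.877, where genes are not independent replicates.

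The copper transporters of the SLC31 family moved apart. Slc31a1, the high-affinity copper importer (ENSMUSG00000066150, chromosome 4, 62360727 to 62391769), was read at 38.8, 40.01 and 38.7 FPKM with PBS and at 40.8, 37.1 and 38.3 FPKM with cisplatin. The groups overlapped. Its log2 fold change was -0.018 (SE 0.044, limma adjusted p = 0.74), and the 95% interval from -0.12 to 0.087 bounds the difference on this scale. After scaling by total reads the value was 0.067, and after scaling by the Y-linked genes it was -0.99.

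Slc31a2, its relative on the same chromosome (ENSMUSG00000066152, 62262562 to 62298411), was at 55.2, 56.3 and 56.4 FPKM with PBS and at 96.8, 107 and 105 FPKM with cisplatin. Every cisplatin library lay well above every PBS library, and the mean went from 56.0 ± 0.67 to 103 ± 5.51 FPKM (SD, n = 3 each). Its log2 fold change of 0.87 (SE 0.045, 95% interval 0.76 to 0.97, limma adjusted p = 4.39e-06) did not reach the fold threshold, and it turned to -0.12 after scaling by the Y-linked genes (0.71 relative to the median of all genes). As high a value or higher was found in 6.85% of tested genes. The genes lie 62315 bases apart, and Slc31a2 was 1.42, 1.41 and 1.46 times as high as Slc31a1 with PBS and 2.37, 2.89 and 2.75 times with cisplatin. That ratio was chosen after the values were seen and has no test.

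Of the copper-exporting ATPases, Atp7a (ENSMUSG00000033792, chromosome X, 106027276 to 106124926), mutated in Menkes disease, was read at 12.2, 13.2 and 12.3 FPKM with PBS and 6.11, 5.56 and 5.87 FPKM with cisplatin. The groups were well separate, with means of 12.6 ± 0.54 and 5.84 ± 0.28 FPKM (SD, n = 3 each), 2.15-fold higher with PBS. The log2 fold change was -0.99 (SE 0.054, 95% interval -1.11 to -0.86, limma adjusted p = 5.80e-06), just short of the fold threshold. It was past the threshold at -1.09 with a pseudocount of 0.1, at -1.07 as TPM and at -1.01 with voom, and also without cisplatin replicate 1 or without PBS replicate 1.

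Set against the importer, Atp7a was at 0.313, 0.329 and 0.319 of the Slc31a1 level with PBS and at 0.150, 0.150 and 0.153 of it with cisplatin. The ratio hardly varied within a group and did not overlap between groups, at 0.320 ± 0.0080 and 0.151 ± 0.0020 (SD, n = 3 each). Its log2 difference on log2(FPKM + 1) was -0.97 (SE 0.022, exact permutation test, two-sided, p = 0.1, again the smallest possible).

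Atp7b (ENSMUSG00000006567, chromosome 8, 21992785 to 22060305, minus strand), the Wilson disease gene, was the lowest of the 10 genes in both groups. It had 145, 133 and 111 reads with PBS, or 1.26, 1.31 and 1.10 FPKM, and 8, 11 and 6 reads with cisplatin, or 0.0723, 0.103 and 0.0559 FPKM. The groups were far apart in relative terms, the PBS mean being 15.9 times the cisplatin mean, but both levels were low. On log2(FPKM + 1) the change was -1.05 (SE 0.11, 95% interval -1.30 to -0.79, limma adjusted p = 0.000131). Since the gene passed the filter through its PBS libraries alone, that p supports nothing. The change was -2.91 with a pseudocount of 0.1 and -3.86 with voom on the recovered reads, whereas quantile normalisation gave -0.98 and no call.

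**Figure D3:**
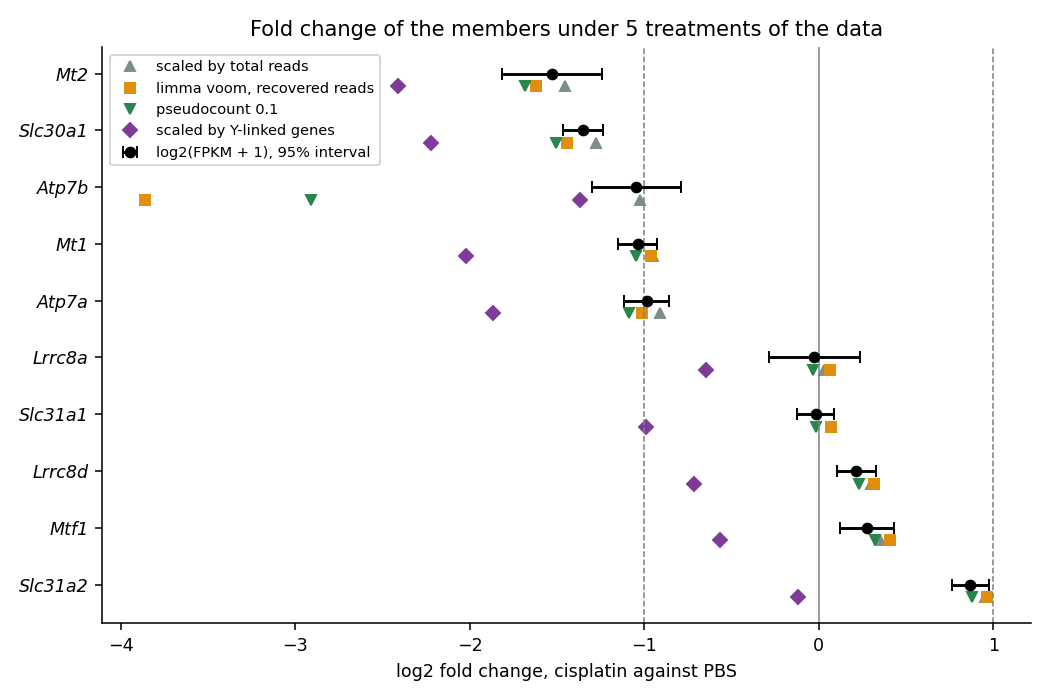
Log2 fold change of each gene, cisplatin against PBS, on the horizontal axis, with the 95% interval of the limma fit on log2(FPKM + 1) in black and 4 alternative treatments of the data in colour. Dashed lines mark a log2 fold change of 1 in either direction. Slc31a2, Mtf1 and Lrrc8d lie above 0 in black and below 0 after scaling by the Y-linked genes (purple), which moves the median of all genes to -0.83, and Atp7b moves from -1.05 to -3.86 with voom.

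Of the volume-regulated anion channel genes, Lrrc8a encodes the subunit without which no channel forms. It was read at 1.40, 1.58 and 2.02 FPKM with PBS and 1.73, 1.47 and 1.63 FPKM with cisplatin, and the PBS libraries spanned the cisplatin libraries. The log2 fold change was -0.026 (SE 0.11, limma adjusted p = 0.848), with a 95% interval from -0.29 to 0.24 that leaves room for a modest change either way. In the annotation 2944 of its exon bases, 68.3% of its length, are shared with Gm28035 on the same strand and with 1700084E18Rik on the opposite strand. Gm28035 was listed at 0 in all 6 libraries. If all recovered Lrrc8a reads came from the 1364 unshared exon bases, its level would be 5.27 FPKM with PBS and 5.09 FPKM with cisplatin. Whether they did is not known. The position of Lrrc8a (ENSMUSG00000007476) is chromosome 2, 30237715 to 30263790.

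Lrrc8d, the partner subunit known for platinum drug passage (ENSMUSG00000046079, chromosome 5, 105699969 to 105832436), stood at 13.1, 13.6 and 12.96 FPKM with PBS and 16.2, 14.8 and 15.5 FPKM with cisplatin. The groups did not overlap but were close. The log2 fold change of 0.22 (SE 0.047, 95% interval 0.10 to 0.33, limma adjusted p = 0.00553) was under the fold threshold, 34.2% of tested genes were as high or higher, and the value was -0.72 after scaling by the Y-linked genes (0.11 relative to the median of all genes). Its level was 9.33, 8.63 and 6.41 times that of Lrrc8a with PBS and 9.35, 10.1 and 9.52 times with cisplatin. On log2(FPKM + 1) this ratio differed by 0.24 (SE 0.11, exact permutation test, two-sided, p = 0.1, the smallest possible), and the lowest cisplatin library exceeded the highest PBS library by little. Without PBS replicate 3 the difference was 0.13.

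The other subunits went down rather than up. Lrrc8c was at 12.7, 13.5 and 13.3 FPKM with PBS and 7.98, 8.05 and 7.33 FPKM with cisplatin (log2 fold change -0.69, SE 0.052, limma adjusted p = 2.55e-05). Lrrc8b fell by 0.55 on the log2 scale (limma adjusted p = 0.00036). Both were under the fold threshold and stayed lower under every scaling tried. Lrrc8e was left untested at 1.45, 0.994 and 1.14 FPKM with PBS and 0.0569, 0.0737 and 0.190 FPKM with cisplatin, which did not pass the filter.

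In the PBS libraries the order of the 10 genes by FPKM was Mt1, Slc31a2, Slc31a1, Mt2, Slc30a1, Lrrc8d, Atp7a, Mtf1, Lrrc8a and Atp7b. The ranges of Slc30a1, Lrrc8d and Atp7a overlapped with their neighbours there, and those of the others did not. With cisplatin the order was Slc31a2, Mt1, Slc31a1, Lrrc8d, Mtf1, Atp7a, Mt2, Slc30a1, Lrrc8a and Atp7b. Here Mtf1 overlapped with Atp7a and Mt2 with Slc30a1. The lengths used matter for such an order, since Lrrc8d is given 12573 bases against 3929 in its principal transcript, over which its level would be 42.3 FPKM with PBS and 49.7 FPKM with cisplatin.

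Among the copper chaperones, reductases and cuproproteins, 16 of 18 listed genes were tested. Of these 3 were called lower, beside 11.3% of all tested genes, and 0 higher, beside 4.67%. At an unadjusted p under 0.05 in limma 5 were higher. The same number were higher by the adjusted p, beside 32.9% of all tested genes. By the adjusted p 5 were lower, beside 35.1%, and 6 did not pass. The median log2 fold change of the list was -0.11. The copper-binding ferroxidase gene Cp, ceruloplasmin, was at 97.6, 111 and 100.5 FPKM with PBS and 7.94, 7.93 and 7.98 FPKM with cisplatin (log2 fold change -3.54). Loxl2, a copper-dependent lysyl oxidase of the extracellular matrix, was at 48.5, 53.7 and 52.5 FPKM and at 3.32, 2.67 and 2.60 FPKM (log2 fold change -3.77). Steap2, a metalloreductase, had a log2 fold change of -1.27. The copper chaperone Atox1, which hands copper to the ATPases, was read at 63.1, 66.2 and 76.2 FPKM with PBS and 78.7, 79.5 and 75.7 FPKM with cisplatin. Its groups overlapped, and its log2 fold change was 0.19 (limma adjusted p = 0.0476). The mitochondrial copper and phosphate carrier gene Slc25a3 had a log2 fold change of 0.42, which was -0.57 after scaling by the Y-linked genes.

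Zinc transporters other than Slc30a1 went both ways. Of 23 listed genes 15 were tested. Of these 1 was called higher, beside 4.67% of all tested genes, and 1 lower, beside 11.3%. By the adjusted p 4 were higher, beside 32.9% of all tested genes, and 7 lower, beside 35.1%. The median log2 fold change was 0.0074. Slc39a6, the importer ZIP6, was read at 14.8, 15.7 and 14.9 FPKM with PBS and 34.5, 31.2 and 32.3 FPKM with cisplatin, a log2 fold change of 1.06 that was 0.11 after scaling by the Y-linked genes. Slc30a4, the vesicular zinc transporter ZnT4, went from 27.6 to 10.6 FPKM in the mean, with a log2 fold change of -1.30. Slc39a1, the most abundant of these genes, had a log2 fold change of -0.36 (limma adjusted p = 0.000658). The remaining genes past the adjusted p, named after their values were seen, were Slc39a4 (0.69), Slc30a5 (0.54) and Slc39a9 (0.32) on the higher side and Slc30a9 (-0.91), Slc39a10 (-0.86), Slc30a6 (-0.39), Slc39a11 (-0.35) and Slc39a14 (-0.19) on the lower, with log2 fold changes in parentheses. After scaling by the Y-linked genes Slc39a4, Slc30a5 and Slc39a9 turned to -0.25, -0.40 and -0.54, with the median of all genes at -0.83.

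Other transporters linked to cisplatin, listed with genes of glutathione, a thiol that binds platinum, gave 3 calls, all higher, from 13 tested of 20 listed. Over all tested genes 4.67% were called higher and 11.3% lower. By the adjusted p 5 were higher, beside 32.9% of all tested genes, and 4 lower, beside 35.1%. The median log2 fold change was 0.18. Abcb1b, Slc22a3 and Ggt1 passed the filter through the cisplatin libraries alone, so their direction was fixed by it. Of the 3 calls, that of Abcb1b therefore adds nothing to these counts. Nor do Abcb1b and Slc22a3 among the 5 higher by the adjusted p. The median of 0.18 is the value of Ggt1 itself and so rests on the filter too. The subunits of glutamate-cysteine ligase, the first enzyme of glutathione synthesis, rose together. Gclm was at 19.3, 19.4 and 19.4 FPKM with PBS and 57.9, 52.6 and 53.4 FPKM with cisplatin (log2 fold change 1.45, and 0.48 after scaling by the Y-linked genes). Gclc was at 22.3, 23.7 and 22.2 FPKM and at 49.8, 47.2 and 48.4 FPKM (log2 fold change 1.06, and 0.091 after that scaling). The efflux pump gene Abcb1b was at 0.750, 0.506 and 0.839 FPKM with PBS and 4.62, 3.96 and 4.37 FPKM with cisplatin. Any reads that also fit its paralog Abcb1a would add uncertainty to these values. Gstp1, a glutathione transferase with a near-identical copy in Gstp2, was at 82.0, 82.9 and 116 FPKM with PBS and 53.8, 54.0 and 64.2 FPKM with cisplatin (log2 fold change -0.68).

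**Figure D4:**
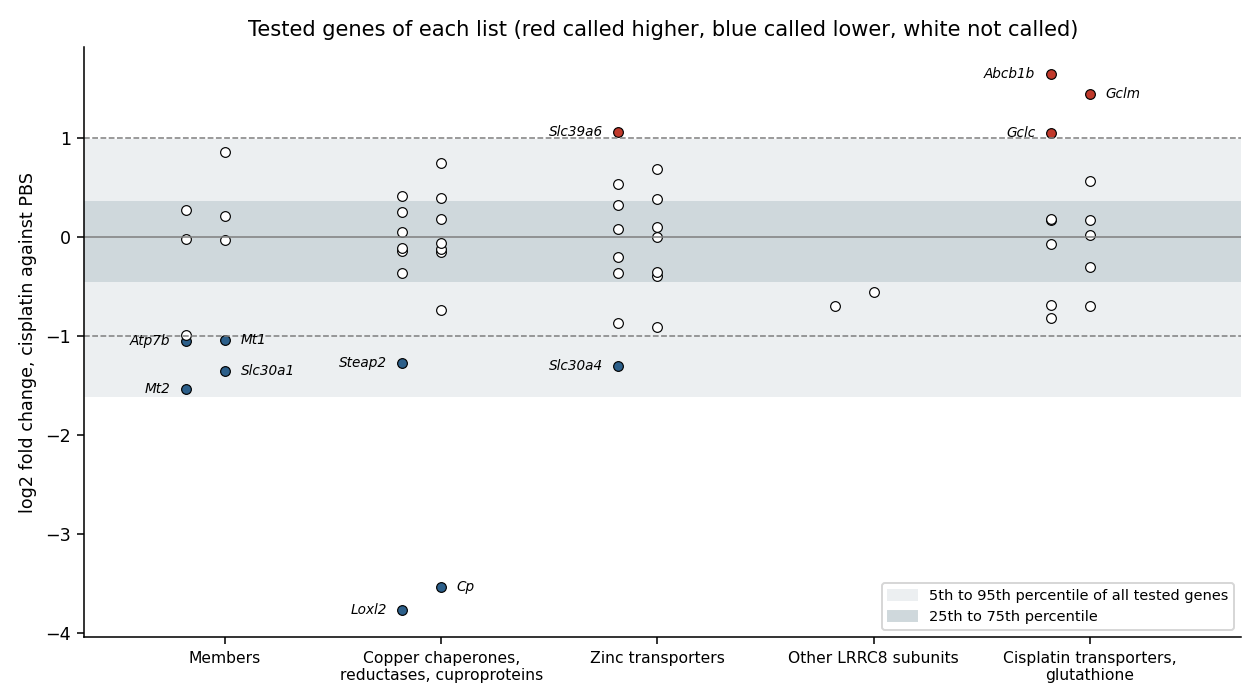
Log2 fold change of every tested gene in the 10 described here (Members) and in 4 lists of related genes, cisplatin against PBS, with calls higher in red, calls lower in blue and all others in white. Shaded bands give the spread of all tested genes (the 5th percentile is -1.61 and the 95th 0.99), and dashed lines mark 1 in either direction. Mt1, Mt2, Slc30a1 and Atp7b lie within the outer band, and Cp and Loxl2 lie far below it. Under scaling by the Y-linked genes the points of Slc39a6 and Gclc fall to 0.11 and 0.091.

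Genes whose pattern over the 6 libraries was most like that of a metallothionein were found by Euclidean distance on log2(FPKM + 1) after the mean of each gene was subtracted. Nearest to Mt1 were Trim2 (distance 0.065), Ppp2r2b (0.065), Fam114a1 (0.075), Rnf128 (0.087) and 2010111I01Rik (0.087), with log2 fold changes from -1.07 to -1.04. For Mt2 they were Il17rc (0.16), Hpx (0.21), Ift43 (0.22), Fzd2 (0.22) and Gmpr (0.24), with log2 fold changes from -1.63 to -1.52. The neighbouring metallothionein was not among them, as Mt2 took rank 2272 from Mt1 and Mt1 took rank 947 from Mt2 at a distance of 0.72. Near genes have near log2 fold changes by the way the distance is built. Some were weakly expressed, where the added 1 shrinks the change. Trim2 had means of 2.39 FPKM with PBS and 0.65 FPKM with cisplatin, and Hpx 2.55 and 0.23 FPKM. Rnf128 stood higher, at 43.0 and 20.3 FPKM. A like value on this scale is thus not always a like ratio of levels.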

How the data were processed

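The authors deposited a table of FPKM values for 54532 genes in 6 libraries of poly-T selected RNA, with identifiers, coordinates and lengths. Per the study's methods, low-quality reads were removed and LifeScope aligned and counted the rest, whereas the submitters' processing notes name fastp, HISAT2 2.0.5, featureCounts 1.5.0-p3 and mm10. Which of them made the table is not given in the sources used here. GENCODE M21 (GRCm38) held 54495 of its identifiers, 98.3% of them at equal coordinates.

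FPKM times length gave whole reads within 0.05 for 100% of values under 200 reads, and totals ran from 15776238 to 16396353 with cisplatin and from 15907567 to 17924686 with PBS. The 13441 genes with 3 or more of 6 libraries at an FPKM of 1 or higher were fitted as log2(FPKM + 1) on the group in R 4.3.3 with limma 3.58.1 (eBayes with a trend, two-sided). The procedure was tested on simulated data. Ratios of 2 genes were compared by exact permutation tests over libraries.

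All 10 genes were named. From each related list the text names the called genes, up to the 4 with the largest change, and the 2 with the highest mean, and for each metallothionein the 5 nearest genes. The genes and lists were chosen with earlier results of these data known, so their counts are descriptions. Groups came from the labels, which give the replicate numbers 1, 2 and 3 in each.

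Alternatives were a pseudocount of 0.1, no filter or one at 5 FPKM, scaling by median of ratios, total recovered reads, TPM, quantiles or Y-linked genes, eBayes without a trend, limma voom on recovered reads, a replicate block, the adjusted p alone, limma treat, and leaving out each library. Promoters came from RefSeq (GRCm38.p6). Protein sequences were not used here.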

Additional observations from a re-analysis of the deposited data

How the results depend on the processing

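Mt2 and Slc30a1 were called lower under each of the 19 settings besides the reported one, and Mt1 and Atp7a kept their direction under all of them. The direction of Atp7b was set by the filter. The number of the 10 genes called lower was 2 with limma treat, and those called higher numbered 3 by the adjusted p alone. Over all tested genes, calls higher numbered 973 with a pseudocount of 0.1, 85 with Y-linked scaling, 1227 with voom, 240 with treat and 4424 by the adjusted p alone. Calls lower numbered 5181 with Y-linked scaling, 982 with treat and 4721 by the adjusted p alone. Leaving out each library in turn gave 3 to 5 of the 10 genes called lower, with the lowest without cisplatin replicate 2 (Mt1 lost at -0.9999) and the highest without cisplatin replicate 1 or PBS replicate 1 (Atp7a gained), and 622 to 671 genes higher and 1513 to 1531 lower over all genes.

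Signs turned under Y-linked scaling for Mtf1 (-0.57), Slc31a2 (-0.12) and Lrrc8d (-0.72), with the median of all tested genes at -0.83. Relative to that median they were 0.26, 0.71 and 0.11, but subtracting the median largely undoes the scaling. Values near 0 also turned. Leaving out 1 library at a time put Slc31a1 between -0.055 and 0.012 and Lrrc8a between -0.098 and 0.067. Slc31a1 was at 0.067 by total reads, 0.084 by quantiles, 0.069 with voom and 0.012 without cisplatin replicate 2, and Lrrc8a at 0.029, 0.13, 0.061 and 0.014 under the same settings and at 0.067 without PBS replicate 3. The cause was not tested. At a filter of 5 FPKM, Atp7b and Lrrc8a were not tested, which left 8 of the 10 genes.

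In the fit with a replicate block, 4 of the 10 genes were called lower and 0 higher, and 625 and 1515 genes were called higher and lower over all. The block changed no call among the 10. In the paired form of the ratio comparisons the log2 differences were unchanged (0.49 for Mt1 to Mt2), with an exact sign-flip p of 0.25, the smallest that 3 pairs allow. Deviations of same-numbered libraries correlated at -0.10, -0.086 and -0.024, so no effect shared by replicate number was seen. Whether same-numbered libraries were handled together is not given in the sources used here. Without PBS replicate 3 the Lrrc8d to Lrrc8a difference moved from 0.24 to 0.13. Counting error limits Atp7b most, at 6 to 11 reads per cisplatin library.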
